A study of Homo sapiens with 18 samples.

Results

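The CYP4F enzymes CYP4F2, CYP4F3, CYP4F8, CYP4F11, CYP4F12 and CYP4F22 were followed across 3 colorectal cancer cell lines given either calcitriol, the vitamin D metabolite that binds the vitamin D receptor, or ethanol alone. The 6 genes were chosen by their CYP4F symbols, and the family was selected on the measured calcitriol differences in LS174T, so member values of that contrast are given as a description without a test. The platform annotation gave the 6 genes 9 probes among 47323 probes and 20046 named genes on the array. Of these, 7 probes of 5 genes passed the filter used for testing, a detection p under 0.05 on at least 3 of the 18 arrays, as did 25586 probes of 13712 genes in all. The only CYP4F8 probe and 1 of the 3 CYP4F3 probes were detected on no array.

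CYP4F proteins are cytochrome P450 monooxygenases of the endoplasmic reticulum that add a hydroxyl group at or near the omega end, the methyl end, of fatty acids and their signalling derivatives. CYP4F3 is best known for inactivating leukotriene B4, a neutrophil attractant, and CYP4F2 for omega-hydroxylating arachidonic acid and for the first step in the breakdown of vitamin E and vitamin K. CYP4F11 also acts on vitamin K and on hydroxy fatty acids, CYP4F12 was described in the small intestine and oxidises arachidonic acid and some antihistamines, CYP4F8 hydroxylates prostaglandin endoperoxides in the seminal vesicles, and CYP4F22 hydroxylates the very long fatty acids of the ceramides that seal the skin.

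HCT116, LS174T and SW480 are established lines, each a single tumour-derived population with no normal colon cells beside it. Cells received 50 nM calcitriol or ethanol and were harvested after 16 h; the labels list charcoal-treated serum for treatments. Each of the 6 combinations of line and treatment has 3 arrays. Whether replicates of a group came from separate cultures is not in the labels, so each p-value rests on the spread of arrays that may be technical repeats. Total RNA was read on single-colour Illumina BeadChips, and levels are the deposited log2 intensities, which can be compared between arrays for 1 probe but not between probes.

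Between 19295 and 21028 probes were detected per array, and replicates correlated at 0.991 to 0.993. The 18 arrays limit the precision: the median SD of a probe within a group was 0.142 to 0.149 on the log2 scale. CYP24A1, the vitamin D catabolic gene used here to check the treatment, rose in each line, from 11.18 to 12.74 in HCT116, from 9.17 to 10.49 in SW480, and from not detected to 12.92 in LS174T (adjusted p = 3.74e-06, 8.60e-06 and 3.97e-17, limma). Of 10 colorectal epithelial markers, all were detected on every LS174T array, whereas CDX1, VIL1 and LGALS4 were detected on no HCT116 array and CDX1 and LGALS4 on no SW480 array. Of 11 neutrophil and other leukocyte markers, 8 were detected on no LS174T array, PTPRC, S100A8, CSF3R, MPO and ELANE among them. The other 3, CD68, CD79A and FCGR3B, were detected on every LS174T ethanol array, and 2 of these on every LS174T calcitriol array. Of 7 hepatocyte markers with a probe, 3 were detected on every LS174T array and 2 on every array of HCT116 and of SW480. APOA1, APOB and TTR were detected on no array of any line. In LS174T the summed raw intensity of the epithelial markers was 39971 to 45547 with ethanol and 44189 to 49495 with calcitriol, and that of the leukocyte markers 1739 to 1890 and 1852.5 to 2031; their part in the results was not tested.

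CYP4F3 had the largest difference of the family. On the probe ILMN_1736190 its log2 level in LS174T was 6.40, 6.80 and 6.47 with ethanol and 10.06, 10.05 and 9.71 with calcitriol. The arrays of the LS174T treatments did not overlap, and the calcitriol arrays were the highest of the 18. In HCT116 the probe read 7.12, 6.85 and 6.77 with ethanol and 7.60, 7.28 and 7.83 with calcitriol, again without overlap. In SW480 it was detected on none of 6 arrays, between 4.63 and 5.04.

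The mean in LS174T was 6.56 ± 0.21 (SD, n = 3) with ethanol and 9.94 ± 0.20 (SD, n = 3) with calcitriol, a difference of 3.38 with a standard error (SE) of 0.16 in the limma fit, or 10.4-fold. That difference ranked 7 among 25586 probes by size of the increase. Without background correction it was 2.36 on the log2 scale. In HCT116 the difference was 0.66 (SE 0.16), 1.58-fold, with a 95% confidence interval of 0.32 to 0.99. It had an unadjusted p of 0.000815 and an adjusted p of 0.219 by limma with Benjamini-Hochberg adjustment over all 25586 probes, and so did not pass the threshold of 0.05. In these bulk arrays, more RNA per cell and more cells that make it cannot be told apart.

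The 3 CYP4F3 probes disagreed in size. The probe ILMN_3251260 was detected on 4 arrays, all LS174T, and read 5.33, 4.91 and 5.93 with ethanol against 6.77, 6.81 and 5.83 with calcitriol. Its groups overlapped because the lowest calcitriol array lay below the highest ethanol array, and the difference of 1.08 (SE 0.26) stood beside 3.38 on the first probe. The probe ILMN_2089484 lay between 4.59 and 5.10 and was detected on no array, with an LS174T difference of -0.15. CYP4F3 makes alternatively spliced transcripts, and which of them each probe reads was not tested, since probe sequences were not used here. The CYP4F genes are close in sequence, so a probe may also read another member: this was not tested either.

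**Figure D1:**
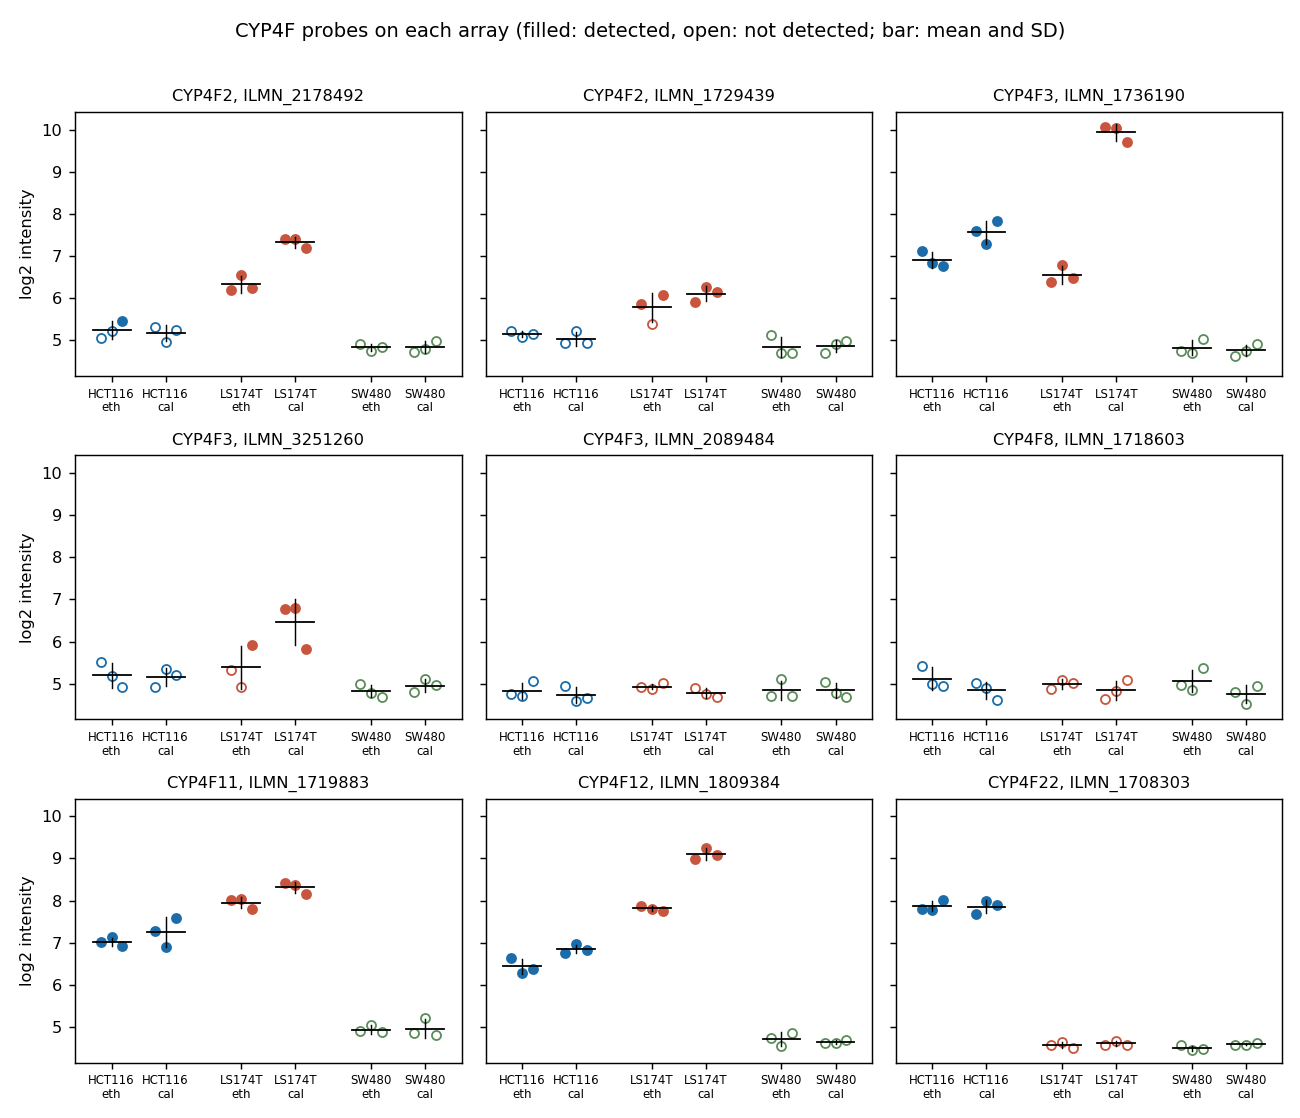
Deposited log2 intensity of the 9 CYP4F probes on each of 18 arrays, 3 per line and treatment (eth, ethanol; cal, calcitriol); filled points were detected, open points were not, and bars give the mean and SD. CYP4F3 on ILMN_1736190 reached 9.71 to 10.06 in calcitriol-treated LS174T, and no probe was detected in SW480.

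The promoter of CYP4F3 is shown with the member window most like it, because the data hold CYP4F3 and CYP4F11 probes that were both detected in HCT116 and LS174T and in no SW480 array. Windows run from 250 bases before to 50 bases after the annotated transcript start, in RefSeq's table for GRCh38.p14, read 5′ to 3′ on the gene's strand. The table holds 6 windows for 5 of the 6 genes, and CYP4F12 has no entry. The CYP4F3 window lies at chr19:15641062-15641361 on the plus strand, and the second start of CYP4F11 at chr19:15934480-15934779 on the minus strand. Capitals mark the longest run the 2 windows share, 19 bases, and the windows are identical at 205 of 332 aligned columns (61.7%). Other member windows were more alike. The first CYP4F11 start was 66.5% identical to CYP4F8, detected on no array, and 65.3% identical to CYP4F2. With CYP4F3 the first CYP4F11 start was 42.8% identical. Whether likeness of windows goes with detection was not tested.
CYP4F3: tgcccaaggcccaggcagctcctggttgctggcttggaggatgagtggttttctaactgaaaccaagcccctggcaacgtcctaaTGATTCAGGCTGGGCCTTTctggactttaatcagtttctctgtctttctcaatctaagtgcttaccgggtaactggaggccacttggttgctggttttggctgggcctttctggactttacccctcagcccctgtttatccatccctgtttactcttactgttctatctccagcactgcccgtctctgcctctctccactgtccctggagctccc
CYP4F11 start 2: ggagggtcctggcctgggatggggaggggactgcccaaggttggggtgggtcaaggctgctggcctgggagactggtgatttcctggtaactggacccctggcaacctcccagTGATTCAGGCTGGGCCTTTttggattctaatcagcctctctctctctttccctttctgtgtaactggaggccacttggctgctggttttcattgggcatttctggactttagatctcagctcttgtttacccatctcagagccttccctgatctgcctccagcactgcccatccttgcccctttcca

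The CYP4F2 window, at chr19:15898025-15898324 on the minus strand, is shown because it is the only other member window with a half-site of the kind the vitamin D receptor binds; capitals mark that half-site.
CYP4F2: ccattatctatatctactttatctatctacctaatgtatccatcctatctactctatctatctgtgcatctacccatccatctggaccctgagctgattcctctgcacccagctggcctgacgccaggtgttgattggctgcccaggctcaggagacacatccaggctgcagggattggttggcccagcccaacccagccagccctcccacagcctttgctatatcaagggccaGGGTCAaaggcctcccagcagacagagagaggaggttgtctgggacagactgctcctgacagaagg

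Half-sites were searched on both strands as AGGTCA and its variants, which were AGTTCA, then GGGTCA, and lastly GGTTCA. One stood in the CYP4F2 window and another in the second CYP4F11 window, both GGGTCA, and none in the windows of CYP4F3, CYP4F8, CYP4F22 or the first CYP4F11 start. Of 35116 promoter windows of this length in the table, 38.6% held at least 1 half-site. A direct repeat of 2 half-sites with a spacer of 3 bases stood in no member window and in 0.0740% of all windows.

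CYP4F2 was detected in LS174T and, on the probe ILMN_2178492, on 1 of 6 HCT116 arrays. That probe read 6.20, 6.56 and 6.24 in LS174T with ethanol and 7.41, 7.40 and 7.18 with calcitriol. The 3 calcitriol arrays lay above all 3 ethanol arrays, with a difference of 1.00 (SE 0.13), 2.0-fold, which ranked 126 of 25586. The second CYP4F2 probe, ILMN_1729439, read 5.87, 5.40 and 6.08 with ethanol and 5.92, 6.26 and 6.15 with calcitriol. These overlapped, and the difference was 0.33 (SE 0.16).

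In HCT116 the CYP4F2 probes differed by -0.08 and -0.12 between treatments (adjusted p = 0.925 and 0.893, limma), and in SW480, where neither was detected, by -0.0049 and 0.03. Without background correction the LS174T difference of ILMN_2178492 was 0.49.

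CYP4F12 was detected on every HCT116 and LS174T array and on no SW480 array. Its probe read 7.88, 7.80 and 7.75 in LS174T with ethanol and 8.97, 9.26 and 9.07 with calcitriol. The groups lay apart, with a difference of 1.29 (SE 0.11), 2.44-fold, which ranked 63 of 25586. In HCT116 the probe read 6.65, 6.28 and 6.38 with ethanol and 6.76, 6.96 and 6.83 with calcitriol, which also did not overlap. The HCT116 difference of 0.42 (SE 0.11), 1.33-fold, had an unadjusted p of 0.00183 and an adjusted p of 0.251 in limma, and did not pass.

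CYP4F11 read 8.02, 8.03 and 7.80 in LS174T with ethanol and 8.41, 8.36 and 8.16 with calcitriol. The groups did not overlap, but the difference of 0.37 (SE 0.15), 1.29-fold, was the smallest of the 4 members with values apart and ranked 1635 of 25586. In HCT116 the probe read 7.02, 7.12 and 6.93 with ethanol against 7.28, 6.89 and 7.59 with calcitriol, which overlapped. The HCT116 difference was 0.23 (SE 0.15, adjusted p = 0.701 in limma).

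CYP4F22 stood apart from the others in being detected on all 6 HCT116 arrays and nowhere else. It read 7.81, 7.78 and 8.01 in HCT116 with ethanol and 7.69, 7.98 and 7.90 with calcitriol, a difference of -0.01 (SE 0.09, adjusted p = 0.991 in limma, 95% confidence interval -0.20 to 0.18). In LS174T it lay between 4.52 and 4.67, below detection with either treatment. CYP4F8 lay between 4.53 and 5.43 on all 18 arrays and was detected on none. The pseudogenes CYP4F24P and CYP4F30P, the other CYP4F symbols with a probe, were also detected on no array.

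In the ethanol arrays, the lines differed in which CYP4F genes were detected. CYP4F22 had passed the filter through HCT116 alone, and ILMN_2178492, ILMN_1729439 and ILMN_3251260 only through LS174T. For them a difference between these lines follows from the filter, so their values are given without a test and nothing is read from the counts of members. In the ethanol arrays of LS174T against HCT116, 4 of 7 member probes were higher and 1 lower at an adjusted p under 0.05, beside 26.2% higher and 25.2% lower among all 25586 probes. CYP4F12, detected on every array of both lines, was higher in LS174T by 1.37 (SE 0.11, adjusted p = 2.24e-08) and CYP4F11 by 0.92 (SE 0.15, adjusted p = 8.23e-05), both by limma. CYP4F2 on ILMN_2178492 stood 1.09 above its HCT116 level in LS174T (SE 0.13), and the second CYP4F2 probe, detected on no HCT116 array, at least 1.27-fold above. CYP4F22 was at least 5.32-fold lower in LS174T, where no array detected it.

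A bound of this kind sets the mean of the detected group against, on each array of the other, the higher of the dimmest detected signal and the probe's own. It holds for the deposited, background-corrected values only and leaves out the spread of the arrays. Over other settings the CYP4F11 difference of SW480 minus HCT116 in ethanol ran from -2.14 to -0.83 on the log2 scale. The bounds given here and below are thus not limits under every processing. CYP4F3 did not pass between LS174T and HCT116 in ethanol, at -0.36 (SE 0.16, adjusted p = 0.0723, limma), and it passed at an adjusted p of 0.0292 without LS174T ethanol replicate 2. Its other probe differed by 0.19. On ILMN_1736190 the order of CYP4F3 levels had LS174T with calcitriol first, then HCT116 with calcitriol, then both ethanol groups, whose arrays overlapped. SW480 lay below detection, and the calcitriol difference in HCT116 did not pass. On ILMN_3251260 LS174T with calcitriol was again first, followed by LS174T with ethanol, and all neighbouring groups overlapped. For CYP4F2 (on ILMN_2178492), CYP4F11 and CYP4F12 the order had LS174T with calcitriol above LS174T with ethanol, and both above HCT116.

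SW480 lacked detectable signal for all 9 CYP4F probes with either treatment. All 7 that passed the filter therefore passed through HCT116 or LS174T, and lower values in SW480 follow from that; the comparisons with SW480 are descriptions, without a test. Against HCT116 in ethanol, 5 of 7 member probes were lower in SW480 at an adjusted p under 0.05, beside 27.5% of all probes, and against LS174T 5 of 7, beside 27%, from which nothing is read. CYP4F11 was at least 3.05-fold lower than in HCT116 and at least 5.77-fold lower than in LS174T. CYP4F12 was at least 2.03-fold and at least 5.26-fold lower, CYP4F3 on ILMN_1736190 at least 2.82-fold and at least 2.20-fold lower.

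CYP4F22 was at least 5.45-fold lower in SW480 than in HCT116 and was not detected in either SW480 or LS174T. CYP4F2 on ILMN_2178492 was at least 1.89-fold lower in SW480 than in LS174T. Against HCT116, with 1 detected ethanol array, it differed by -0.40 (SE 0.13), and the second CYP4F2 probe, detected in neither line, by -0.31. CYP4F3 on ILMN_3251260 differed by -0.57 from LS174T.

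**Figure D2:**
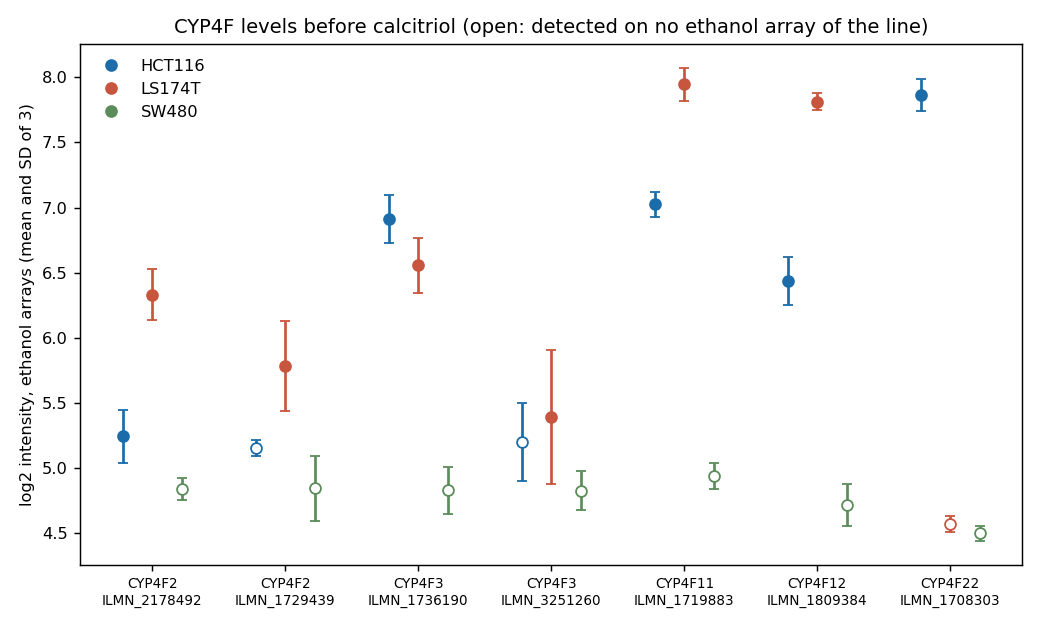
Log2 intensity of the 7 CYP4F probes that passed the filter, in the ethanol arrays of each line (mean and SD of 3); open points mark a line in which no ethanol array detected the probe, and levels are comparable within a probe only. LS174T leads for CYP4F2, CYP4F11 and CYP4F12, HCT116 alone carries CYP4F22, and every SW480 point is open.

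No member probe passed with calcitriol in the 2 lines whose contrasts did not select the family. Few of all probes passed there either, so nothing is read from the counts. In HCT116, ILMN_1729439 and ILMN_3251260 were detected on no array and ILMN_2178492 on 1, so their values there lie near the floor. In HCT116, 0 of 7 member probes passed an adjusted p under 0.05 in limma, beside 0.0391% of all probes (10 of 25586), and 2 of 7, CYP4F3 and CYP4F12, had an unadjusted p under 0.05, as did 2419 of 25586. The same 2 probes were the ones with all calcitriol arrays above all ethanol arrays, beside 7.46% of all probes. In SW480, where no array detected any of the 7, 0 of 7 passed, beside 1.2% of all probes. Of the 7, 0 had an unadjusted p under 0.05 in limma, beside 3498 of 25586 in all. CYP4F22 was the 1 member probe with SW480 calcitriol arrays above the ethanol arrays, beside 9.14% of all probes, at 4.57 to 4.63 against 4.46 to 4.57, and was detected on none of these arrays.

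In LS174T, 4 of 7 member probes had all calcitriol arrays above all ethanol arrays, beside 9.23% of all probes, and this contrast selected the family, so nothing is read from the count. All 7 differences were above 0, with a median of 1.00 against -0.01 over all probes. For the same reason nothing is read from these signs or this median. The members thus ranged from CYP4F3 at 3.38 through CYP4F12 at 1.29 and CYP4F2 at 1.00 to CYP4F22 at 0.04.

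The difference between the HCT116 and SW480 responses was tested for the 7 member probes that passed the filter. No SW480 array detected any of the 7, so the SW480 responses lie at the floor. The test therefore cannot show whether the responses differ. No member passed (0 of 7 probes, beside 1% of all probes in either direction), and 2 of 7 had an unadjusted p under 0.05, as did 3946 of 25586. The response of CYP4F3 was lower in SW480 by 0.72 in size (SE 0.22, adjusted p = 0.127, limma) and that of CYP4F12 by 0.48 in size (SE 0.16, adjusted p = 0.145), with no SW480 array detecting either. The LS174T response exceeded that of HCT116 by 2.72 for CYP4F3 on ILMN_1736190 (SE 0.22) and by 0.87 for CYP4F12 (SE 0.16). For CYP4F11, detected in both lines, the excess was 0.14 (SE 0.22). It was 1.07 (SE 0.19) and 0.44 (SE 0.23) for the CYP4F2 probes, and 1.12 (SE 0.37) for CYP4F3 on ILMN_3251260. These probes lay near the floor in HCT116. CYP4F22, not detected in LS174T, stood at 0.05 (SE 0.13). All are given without a test.

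**Figure D3:**
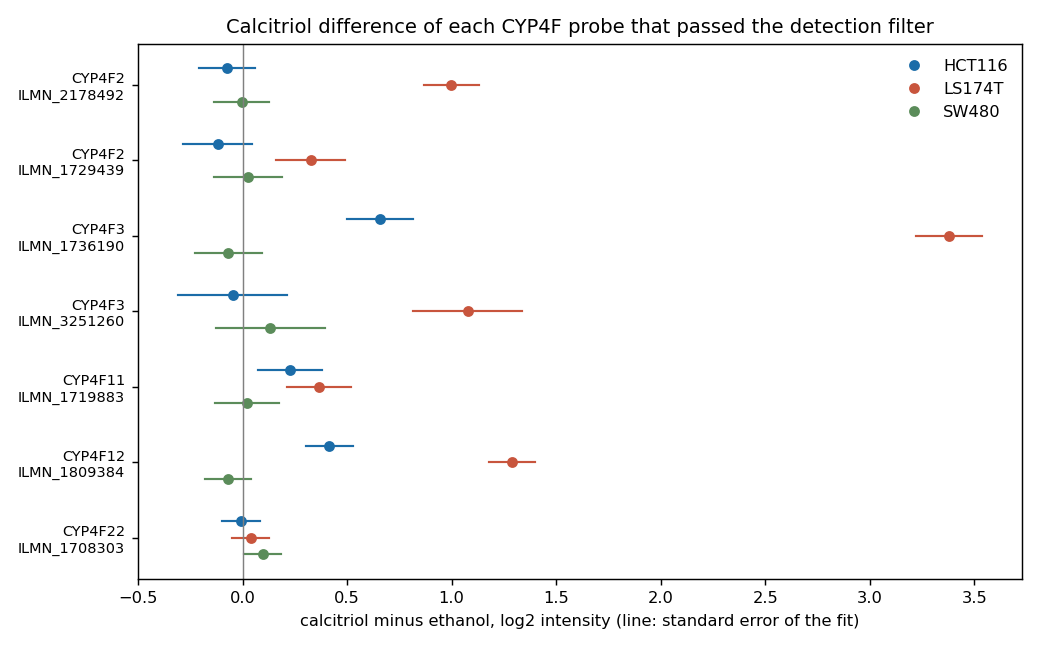
Calcitriol minus ethanol in log2 intensity for the 7 CYP4F probes that passed the filter, in each line, with the standard error of the limma fit. In LS174T the difference reached 3.38 for CYP4F3 and 1.29 for CYP4F12; in HCT116 the same probes stood at 0.66 and 0.42, and in SW480 at -0.07 each.

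The 6 genes lie together on chromosome 19, in the RefSeq order CYP4F22, CYP4F8, CYP4F3, CYP4F12, then 4 olfactory receptor genes and an unnamed locus, then CYP4F2 and CYP4F11. The members that differed in LS174T were not all neighbours: CYP4F3 and CYP4F12 adjoin, CYP4F2 and CYP4F11 adjoin, and CYP4F8 and CYP4F22, at 1 end, were not detected there. Of the non-member genes between the members and the 5 next on either side, 7 passed the filter. TPM4, which codes for a tropomyosin that binds actin filaments, rose in LS174T by 0.54 (SE 0.13, adjusted p = 0.0265, limma), and the other 6 did not pass. Of all probes, 1.91% were higher there.

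Over 15 other settings the adjusted p of TPM4 ran from 0.00281 to 0.178, and the call was lost with only the line's own arrays, with replicate number fitted as a block (the replicate block), and without LS174T ethanol replicate 1 or 2 or calcitriol replicate 1 or 2. The differences of the 7 neighbours in LS174T ran from -0.05 to 0.54, and none passed in HCT116 or SW480. The receptors OR10H1, OR10H2, OR10H3 and OR10H5, which stand between CYP4F12 and CYP4F2, were detected on no array.

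**Figure D4:**
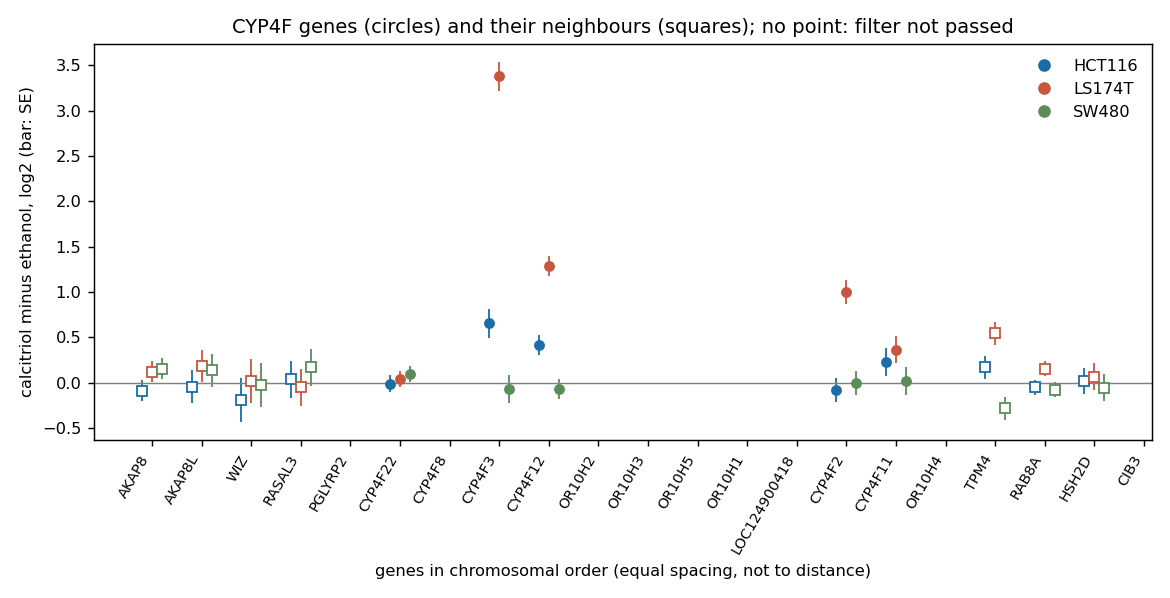
Calcitriol minus ethanol in log2 intensity (bar: SE) along the chromosomal order of the CYP4F genes (filled circles) and their protein-coding neighbours (open squares), equally spaced; genes without a point did not pass the filter. In LS174T the neighbours run from -0.05 to 0.54. CYP4F3, CYP4F12 and CYP4F2 stand above that range, and CYP4F11 at 0.37 and CYP4F22 at 0.04 lie within it. This contrast selected the family, so nothing is read from the members standing higher.

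The genes that supply and follow these enzymes were counted with 1 probe a gene, the brightest. With calcitriol, 0.0391% of all probes passed in HCT116, 3.61% in LS174T and 1.2% in SW480. Few passed, so nothing is read where no gene of a list did. Among the 7 electron donors, POR, the reductase that feeds microsomal P450s, and the cytochrome b5 genes, all were tested and none passed with calcitriol in any line, with a median difference of -0.13 in LS174T. Of the other CYP4 hydroxylases 2 of 6 genes, CYP4V2 and CYP4X1, passed the filter, and neither passed the test with calcitriol on its brightest probe. The second CYP4X1 probe fell by 0.73 on the log2 scale in LS174T (SE 0.15, adjusted p = 0.0118), against 0.04 on the brightest.

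In leukotriene synthesis 9 of 15 genes were tested, and in LS174T 1 rose and 1 fell with calcitriol, beside 1.91% of all probes higher and 1.7% lower. ALOX5AP, the protein that presents arachidonic acid to the leukotriene-forming lipoxygenase, rose from not detected (5.01 ± 0.17, SD, n = 3) to 6.37 ± 0.32 (SD, n = 3), at least 1.88-fold (adjusted p = 1.89e-05, limma). Its LS174T response exceeded that of HCT116 by 1.27 (SE 0.20, adjusted p = 0.00292) and that of SW480 by 1.62 (SE 0.20, adjusted p = 0.000286). The SW480 ethanol arrays, which lacked the CYP4F probes, had ALOX5AP at 8.08 ± 0.08 (SD, n = 3), at least 6.16-fold above LS174T (adjusted p = 1.38e-11).

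PLA2G2A, a secreted phospholipase, fell by 0.50 on the log2 scale in LS174T (SE 0.12, adjusted p = 0.0335), and over 15 other settings its adjusted p ran from 0.00876 to 0.198. Of these, 4 left out 1 array and lost the call, namely LS174T ethanol replicates 1 and 2 and calcitriol replicates 2 and 3. It was also lost under median scaling, with only the line's own arrays, with trend and robust eBayes and with the replicate block. The list's median difference was -0.11, against -0.01 over all probes. Of the leukotriene receptors 2 of 5 were tested, LTB4R and OXER1, and neither passed with calcitriol in any line.

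Among other lipoxygenases and prostanoid genes, 15 of 20 were tested, and in LS174T 1 rose and 2 fell, with a median of -0.06. Of all probes, 1.91% were higher and 1.7% lower there. PTGS2, a cyclooxygenase, rose by 0.48 (SE 0.12, adjusted p = 0.0313), with -0.06 on its second probe. HPGD, which inactivates prostaglandins, fell by 0.58 (SE 0.13, adjusted p = 0.0173), and CYP2J2, an arachidonic acid epoxygenase, fell by 0.60 (SE 0.13, adjusted p = 0.0177). Each of the 3 calls was lost in 4 of 6 fits that left out 1 LS174T array, with adjusted p over all settings of at most 0.208, 0.128 and 0.179. The arrays were ethanol replicates 2 and 3 and calcitriol replicates 1 and 2 for PTGS2, ethanol replicates 1 and 2 and calcitriol replicates 2 and 3 for HPGD, and ethanol replicates 1 and 2 and calcitriol replicates 1 and 3 for CYP2J2. All 3 were also lost under median scaling, HPGD and CYP2J2 with the replicate block, and PTGS2 without background correction, with only the line's own arrays and with trend and robust eBayes.

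Among the steps after omega-hydroxylation, alcohol and aldehyde dehydrogenases and peroxisomal genes, 11 of 20 were tested and none passed with calcitriol, with a median of -0.01 in LS174T. The second ALDH1A1 probe fell by 0.41 in LS174T (SE 0.09, adjusted p = 0.0181), and the brightest differed by -0.40 (SE 0.14, adjusted p = 0.143). In the ethanol arrays 8 of these 11 genes were higher and 2 lower in LS174T than in HCT116, beside 26.2% and 25.2% of all probes. The aldehyde dehydrogenase ALDH3A1 led, at 11.92 ± 0.04 (SD, n = 3) against 5.25 ± 0.16 (SD, n = 3), a difference of 6.67 (SE 0.11, adjusted p = 4.65e-17, limma). In SW480, 7 of the 11 were lower than in LS174T, beside 27% of all probes, and ALDH3A1 was at least 90.8-fold lower. A gene that passed the filter through LS174T alone would tend to be lower in the other lines, so nothing is read from these counts.

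Among the genes of omega-hydroxyceramides, the pathway of CYP4F22, 7 of 12 were tested and none passed with calcitriol, with a median of 0.08 in LS174T. NIPAL4, mutated in inherited ichthyosis as CYP4F22 is, was not detected in HCT116, the line with CYP4F22, and was at least 6.25-fold higher in SW480, the line through which it passed the filter. Among 7 of 9 genes of vitamin K and vitamin E handling that were tested, none passed with calcitriol, with a median of 0.04 in LS174T.

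Of the receptors and factors listed as acting on CYP genes, 11 of 16 were tested and 1 rose in LS174T, with a median of 0.0038. Of all probes, 1.91% were higher there. SREBF2, a regulator of cholesterol genes, rose by 0.97 (SE 0.20, adjusted p = 0.00881), and it did not pass with only the line's own arrays, with the replicate block or without LS174T ethanol replicate 2, with an adjusted p of at most 0.0637 over all settings. VDR, the vitamin D receptor, stood in ethanol at 5.50 ± 0.20 in HCT116, 8.29 ± 0.17 in LS174T and 6.99 ± 0.35 in SW480 (SD, n = 3 each), and passed with calcitriol in no line. VDR exceeded its HCT116 level in LS174T by 2.79 (SE 0.19, adjusted p = 2.23e-09) and in SW480 by 1.49 (SE 0.19, adjusted p = 3.45e-06).

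PPARG, a fatty acid receptor, was higher in HCT116 and LS174T than in SW480, at 11.18 ± 0.02, 11.49 ± 0.05 and 5.64 ± 0.44 (SD, n = 3 each), with adjusted p of 1.33e-13 and 4.21e-14. With calcitriol in LS174T its brightest probe differed by -0.49 (SE 0.17, adjusted p = 0.163), and its second fell by 0.59 (SE 0.11, adjusted p = 0.00341). The second probe of PPARA, another fatty acid receptor, rose by 0.62 (SE 0.12, adjusted p = 0.00747), with 0.59 (SE 0.22, adjusted p = 0.199) on the brightest.

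**Figure D5:**
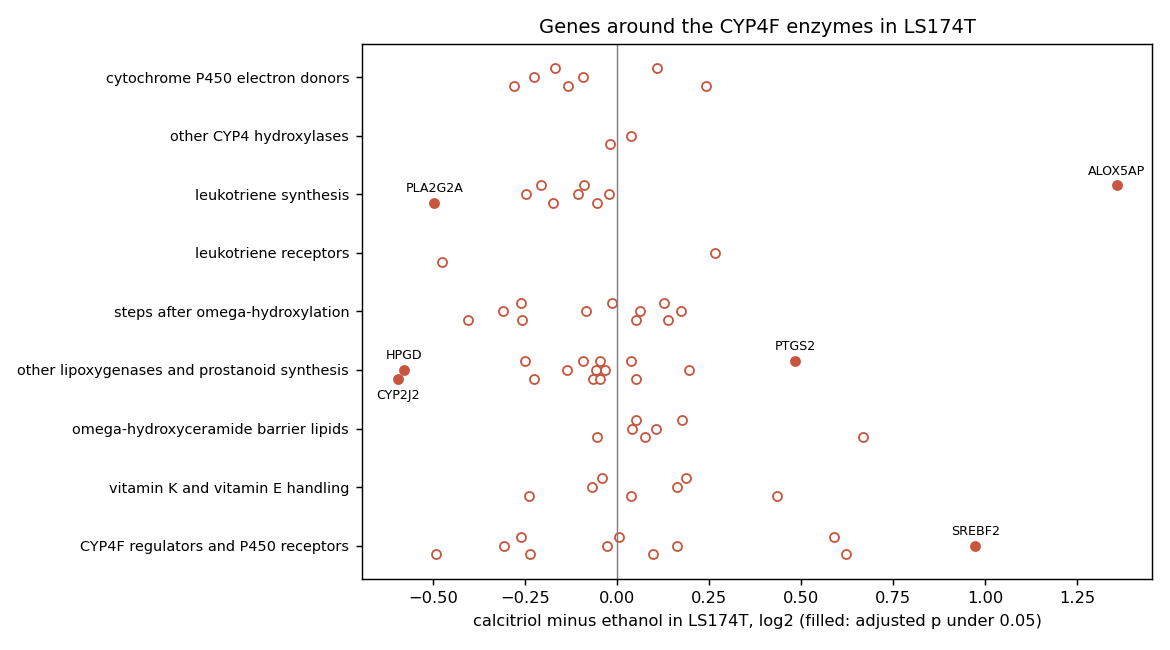
Calcitriol minus ethanol in LS174T in log2 intensity for each tested gene of 9 lists around the CYP4F enzymes, 1 probe a gene; filled and named points passed an adjusted p under 0.05. ALOX5AP, at 1.36, and SREBF2, at 0.97, lie farthest to the right.

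For each member the genes with the most similar profile were taken by Pearson correlation over 18 arrays, among 6668 genes whose group means spanned at least 1 on the log2 scale. These correlations are descriptions, since the arrays of a group share line and treatment. CYP4F3 was most like KLK4 (0.978), SULT1C2 (0.961), SNRK (0.956), LRRC75B (0.951) and UCA1 (0.948). KLK4, a secreted protease gene, went from 6.0 to 8.10 in LS174T, from 6.67 to 6.71 in HCT116 and stood at 5.23 and 5.05 in SW480.

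CYP4F12 was most like SERPINB1 (0.985), EPHB4 (0.983) and CALB2 (0.982), and CYP4F2 most like PDCD6 (0.980), UGDH and GRAMD4 (0.976 and 0.975). SERPINB1, a neutrophil protease inhibitor, went from 11.91 to 13.21 in LS174T and from 11.01 to 11.46 in HCT116. CYP4F11 was most like ME2 (0.991) and CYP4F22 most like NLRP2 (0.999), which stood at 9.86 in HCT116 and 4.83 in LS174T with ethanol.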

How the data were processed

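Total RNA from 18 samples, 3 per line and treatment, was read on Illumina BeadChips. Per the file headers, the authors deposited unnormalized linear bead intensity and a detection p-value for each probe and array, and separately a table of log2 values; for these the submitters' processing notes name limma, with no version. Recomputing background correction and quantile normalization (neqc) from the intensities gave the deposited log2 values within a median of 0.000195 and at most 0.201, which fixes their scale. The bead-summary software is unnamed in the sources used here, and 887 intensity rows without an identifier were left out.

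Probes detected (p under 0.05) on at least 3 arrays were fitted with limma 3.58.1 in R 4.3.3 (lmFit and eBayes, 6 group means, all arrays), p-values were adjusted over 25586 probes, and the fit was tested on simulated data. Genes came from the platform annotation: 30113 probes had 1 symbol, 8 several and 17202 none. The members and gene lists were chosen with earlier results of these data known. Named genes were all members, listed genes past the threshold (at most 4 per list and comparison, some left as counts), neighbours, and the 5 most similar genes.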

Additional observations from a re-analysis of the deposited data

How the results depend on the processing

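No member probe passed with calcitriol in HCT116 or SW480, or in the difference of those responses, under any alternative or left-out array. Member probes past the threshold numbered 5 of 7 in each ethanol comparison. Among all probes the shares were 51.3% for LS174T against HCT116, 55.7% for SW480 against HCT116 and 54.4% for SW480 against LS174T. The member probes numbered 4 to 6 under other settings. Without 1 array they numbered 5 to 6 for LS174T against HCT116, 4 to 6 for SW480 against HCT116 and 5 to 6 for SW480 against LS174T. Many of these calls follow from the detection filter, so nothing is read from the counts. The LS174T difference of CYP4F3 was 3.38, 2.36 without background correction and 3.30 to 3.50 without 1 array. Over all alternatives it ran from 2.36 to 3.51, CYP4F12 from 0.96 to 1.40, CYP4F2 (ILMN_2178492) from 0.49 to 1.11 and CYP4F11 from 0.26 to 0.45. Adjusted p in HCT116 ran from 0.131 to 0.559 for CYP4F3 and from 0.184 to 0.585 for CYP4F12. Signs that turned were near 0 and uncalled: under median scaling, CYP4F22 in HCT116 (0.11) and, in SW480, CYP4F2 (0.0568), CYP4F3 (0.0076) and CYP4F12 (0.0059). Without 1 array the ranges were, in HCT116, -0.168 to 0.0335 for CYP4F2 (ILMN_2178492), -0.19 to 0.11 for CYP4F3 (ILMN_3251260) and -0.0707 to 0.0766 for CYP4F22; in SW480, -0.0834 to 0.0487 and -0.0507 to 0.168 for the CYP4F2 probes, -0.14 to 0.0358 for CYP4F3, -0.11 to 0.10 for CYP4F11 and -0.15 to 0.0045 for CYP4F12. They were -0.0791 to 0.43 for CYP4F3 (ILMN_3251260) between LS174T and HCT116 in ethanol, and -0.0384 to 0.163 for CYP4F2 in the SW480 minus HCT116 response. Counts over all probes moved more. Calcitriol in HCT116 gave 10 probes, 30 without background correction, 5 under median scaling, 6 unfiltered, 1 with the line's own arrays, 25 with trend and robust eBayes, 3 with a replicate block and 5 to 13 without 1 array. LS174T gave 924, then 598 under median scaling, 381 with its own arrays, 542 with the block and 612 to 1062 without 1 array. SW480 gave 307, 8 with its own arrays, 31 with the block and 92 to 223 without 1 array. The response difference gave 257, then 686 without background correction, 52 with the arrays of both lines only, 568 with trend and robust eBayes, 5 with the block and 85 to 305 without 1 array. The ethanol comparisons gave 13137 probes (LS174T against HCT116), 14246 and 13912 (SW480 against HCT116 and LS174T). With 1 probe a gene, where only 13712 are tested, they gave 8287, 8836 and 8753. Without 1 array they gave 12245 to 12504, 13307 to 13538 and 13033 to 13313. Other causes were not tested. Under median scaling the median difference of all probes was 0.142 for SW480 minus HCT116 in ethanol, -0.154 for their response difference and 0.126 for the response of LS174T minus that of SW480, against 0.0025, -0.0039 and -0.0074. It moved the higher share of calls from 52.8% to 69.9% in LS174T, from 32.6% to 7.96% in SW480, from 50.7% to 65.0% for SW480 against HCT116, from 40.5% to 5.51% for the response difference and from 64.4% to 82.2% for the LS174T minus SW480 response. Same-numbered ethanol and calcitriol arrays of a line deviated with correlations of -0.092 to 0.008, none above 0.1 in 9 pairs. No pairing showed in these values, and whether same-numbered arrays shared a culture or a day was not tested. A block of replicate numbers within a line cannot be fitted to differences between lines, so numbers were shared across lines there, chosen after seeing the data, and the replicate block changed no member call. Slides are not named in the files, so that block was not run. Probes below detection limit every SW480 value.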
